A study of Mus musculus with 8 samples.

Results

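Adipose progenitor surface markers are proteins on the outside of the fibroblast-like cells of fat that can become adipocytes, and antibodies against them are used to sort those cells. The set examined here was fixed by name and held 10 genes, F3, Pdgfra, Pdgfrb, Dpp4, Ly6a, Ly6c1, Cd34, Pi16, Cd55 and Icam1. Of these 10, 5 had an entry in the deposited table of cluster markers, which lists 3903 gene symbols: F3, Pdgfrb, Pdgfra, Ly6a and Ly6c1.

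The cells were preadipocytes from the inguinal white adipose tissue of C57BL/6 mice, either wild type (WT) or lacking both HMGN1 and HMGN2 (DKO; labelled Hmgn1-/- and Hmgn2-/-), grown on collagen-coated plates. They were profiled by droplet single-cell RNA sequencing as preadipocytes (day 0) and at day 6 of an induction that drives them towards brown-like adipocytes. Per the study's methods, insulin, dexamethasone, IBMX, T3 and rosiglitazone were given first. Before day 6 they were replaced by a maintenance medium with insulin and T3 only. Each genotype and day had 2 samples, 8 in all. The labels give no age for the mice. The study grouped the cells into 12 clusters, numbered 0 to 11 in the deposited values and here. The paper's own numbers go up to cluster 12, so the numbers used here are not those of the paper.

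For each gene and cluster the table gives the percent of the cluster's cells in which the gene was detected, and the same percent over all other cells. The cells of all 8 samples are pooled in these values, so they have no replicate, no SD and no genotype or day, and the number of cells and reads behind them is unknown. No test was run, and a difference below is one of size alone. An entry is called higher or lower where detection in the cluster differed by at least 10 percentage points from that in all other cells. The table lists a gene for a cluster only if it passed the authors' minimums there, and a gene left out may still have been detected. The clusters were built from the RNA of the same cells, and F3 is one of the genes with which the study annotated its preadipocytes.

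Fat depots hold a hierarchy of progenitors. DPP4 and PI16 mark cells of the interstitial spaces between fat lobules that renew the pool, ICAM1 marks cells committed to become adipocytes, and F3 (CD142) marks a subset reported to restrain the differentiation of its neighbours. PDGFRα, PDGFRβ, CD34 and LY6A (SCA-1) are carried by adipose stromal cells more widely, and their transcripts are known to decline as lipid-storing adipocytes form.

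F3 encodes tissue factor, the membrane protein that starts blood coagulation by binding factor VII. The gene lies on chromosome 3, 121723537 to 121735048, plus strand, and Pdgfra, which encodes the receptor for PDGF-A and PDGF-C, lies on chromosome 5, 75152292 to 75198215, plus strand (GENCODE M21, GRCm38, the assembly also called mm10). The study follows the AP-1 factors FRA2 and JUN, which bind the letters TGANTCA. The promoters of F3 and Pdgfra, which were called in opposite directions in cluster 2, described below, are shown. Each is 300 bases long, from 250 before to 50 after the RefSeq start, on the plus strand of GRCm38.p6, and capitals mark TGANTCA, which reads the same on both strands.
F3, chr3:121723287-121723586: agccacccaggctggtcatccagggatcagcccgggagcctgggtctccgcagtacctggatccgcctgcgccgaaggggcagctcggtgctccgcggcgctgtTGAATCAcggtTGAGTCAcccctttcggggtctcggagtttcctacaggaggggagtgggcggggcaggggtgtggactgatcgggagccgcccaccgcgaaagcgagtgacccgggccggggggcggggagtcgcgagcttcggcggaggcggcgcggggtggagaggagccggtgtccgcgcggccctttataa
Pdgfra, chr5:75152001-75152300: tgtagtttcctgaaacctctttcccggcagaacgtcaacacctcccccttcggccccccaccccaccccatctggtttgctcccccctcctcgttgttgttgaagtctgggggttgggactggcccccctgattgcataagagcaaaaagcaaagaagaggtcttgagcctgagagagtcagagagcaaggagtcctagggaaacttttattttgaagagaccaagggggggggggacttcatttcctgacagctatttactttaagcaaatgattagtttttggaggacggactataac

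The F3 promoter held 2 matches to TGANTCA, which begin at -146 and -135 relative to the start site and are 4 bases apart. Of 32851 mouse promoter windows of the same length, 7.81% held at least 1 match. The Pdgfra window held 0 matches, and so did the windows of Dpp4, Cd34, Pi16, Cd55, Icam1 and Ly6c1. Also searched on both strands was GGGCGG, a GC box, found in 35.7% of all windows, with 3 matches in the F3 window and 2 each in those of Cd55 and Icam1. The letters TATAAA of the TATA box, in 13.6% of all windows, were found once each in the windows of F3, Dpp4, Icam1 and Ly6c1. These matches lie at 44, -227, 14 and -143 relative to the start site, so those of F3 and Icam1 come after it. CCAAT, in 37.4% of all windows, was found once each in the windows of Ly6c1 and Pi16. The motifs do not overlap in these windows. A match describes the letters only, and binding was not measured in these data. Whether these letters bear on the levels by cluster was not tested. The promoter of Pdgfrb, which was called lower in cluster 2 like F3, was not searched.

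Of the 5 markers, F3 varied most widely between clusters and had an entry in 10 of them. Of the 3896 genes with an undamaged symbol, 3.59% were listed for as many clusters or more. F3 was detected in 99.1% of cluster 1 cells, 96.4% of cluster 3, 95.7% of cluster 0 and 94.4% of cluster 7. All other cells stood at 72.4%, 73.8%, 72.9% and 74.9% in these comparisons, and F3 was called higher in all 4. That was common among the genes listed for these clusters, of which 58.8% (cluster 1), 48.7% (cluster 3), 66% (cluster 0) and 59.8% (cluster 7) were called higher. The differences for F3 were 26.7, 22.6, 22.8 and 19.5 points in clusters 1, 3, 0 and 7. With clusters 4 and 10, where most genes were detected in few cells, left out of the other cells, they were 17.4, 13.5, 13.4 and 10.7 points.

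A gap of 29.3 percentage points then followed in the order of the levels. F3 was detected in 65.1% of cluster 6 cells, 57.4% of cluster 8 and 55.4% of cluster 2, against 77.1%, 77.4% and 79.1% of all other cells. These 3 clusters formed a middle level, and F3 was called lower in each, where 14.9% (cluster 6), 45.5% (cluster 8) and 34.5% (cluster 2) of the listed genes were. In cluster 6 the difference was -12.0 points, and -21.3 points without clusters 4 and 10 among the other cells. The lowest levels were 43.5% (cluster 10), 38.1% (cluster 11) and 11.2% (cluster 4), against 77.3%, 76.8% and 83.1% of all other cells. With no spread between samples, neighbours in this order, such as clusters 3 and 0 with a gap of 0.7 points, cannot be ranked beyond the values given.

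Clusters 5 and 9 had no entry for F3, but their level could be solved. How many of all cells each cluster holds follows from the detection percents, since every cluster with an entry must give the same total for a gene. For F3 the detection over all cells came to 76.2%, and the 10 clusters with an entry gave values within 0.073 points of each other. The remainder put F3 at 96.5% of the cells of clusters 5 and 9 combined, which hold 14.7% of all cells. F3 was thus detected there about as often as in clusters 0, 3 and 7, although no entry was listed. The 4 clusters in which F3 was higher held 45.5% of all cells and 57.8% of the cells with F3 detected, while the 6 in which it was lower held 39.8% of all cells and 23.6% of those with F3.

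**Figure D1:**
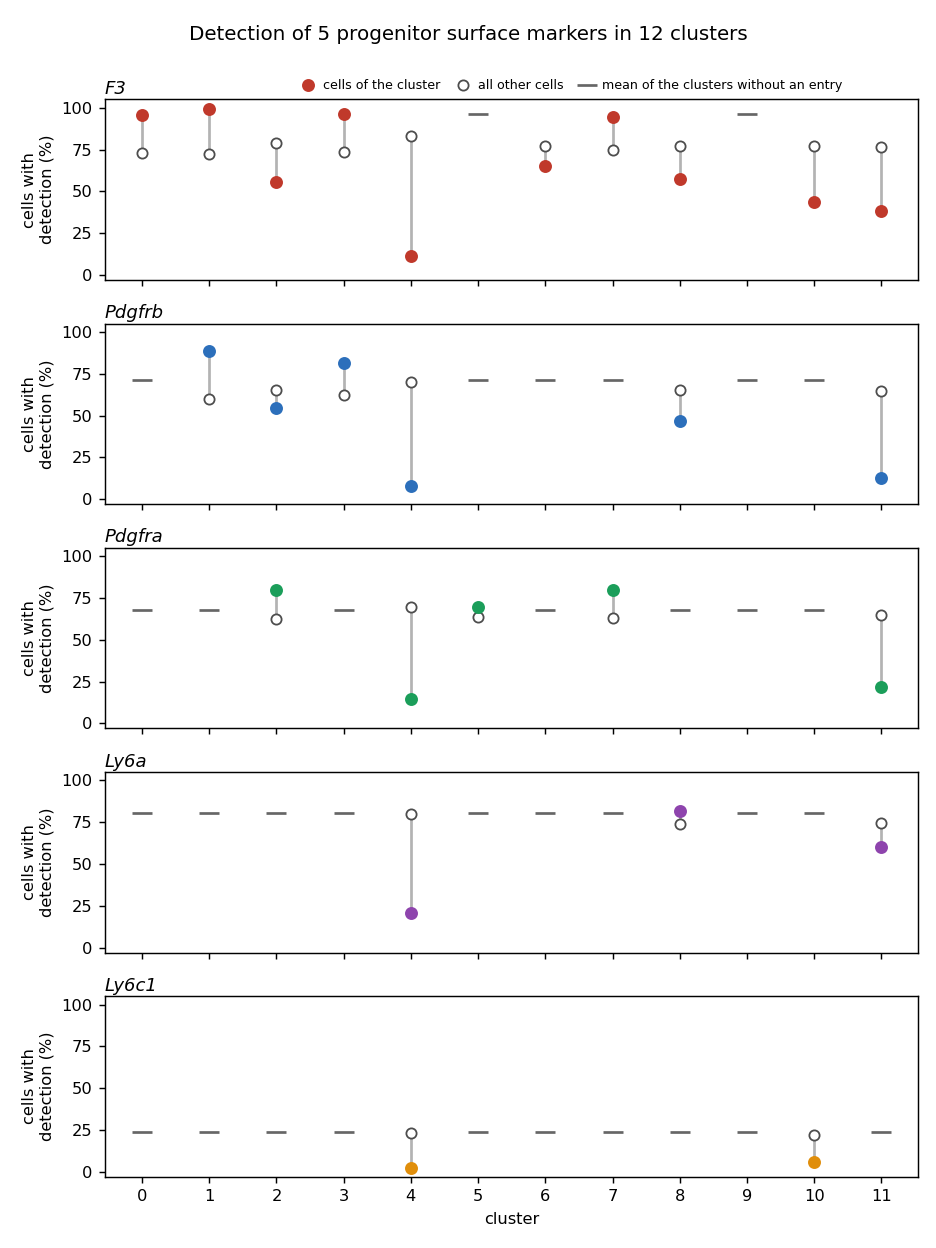
Percent of cells with the gene detected (vertical axis) in each of the 12 clusters (horizontal axis), 1 panel per gene; filled points are the cells of the cluster, open points all other cells, and short bars the solved mean of the clusters without an entry. F3 sits above 94% in clusters 0, 1, 3 and 7 and at 11.2% in cluster 4, and each of the 5 genes is low in cluster 4.

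The PDGF receptors came next. Pdgfrb (chromosome 18, 61045150 to 61085061, plus strand) encodes the receptor for PDGF-B, carried by stromal and mural cells, and had entries in 6 clusters. It was detected in 88.6% of cluster 1 cells and 81.3% of cluster 3, against 60.2% and 62.2% of all other cells. Both entries were called higher. In clusters 2 and 8 its detection was 54.4% and 46.8%, against 65.5% and 65.3%. In clusters 11 and 4 it was 12.4% and 7.9%, against 65.0% and 70.2%. Pdgfrb was called lower in these 4 clusters, so it had the direction of F3 in each of the 6 clusters where it was listed. Of all listed genes, 58.8% and 48.7% were called higher in clusters 1 and 3, and 34.5%, 45.5%, 28.7% and 92.8% lower in clusters 2, 8, 11 and 4, so that in cluster 4 nearly every gene shared this direction. Without cluster 4 among the other cells, its difference of 19.1 points in cluster 3 became 12.6, and that of -11.1 points in cluster 2 became -18.2. Over all cells it was detected in 64.2%, and over the 6 clusters without an entry (0, 5, 6, 7, 9 and 10) in 71.0%.

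Pdgfra parted from F3 in cluster 2, while in clusters 4, 7 and 11 both genes were called in the same direction. It was detected in 80.0% of cluster 7 cells and 79.5% of cluster 2, against 63.3% and 62.3% of all other cells, and was called higher in both. Of the genes listed for cluster 7, 59.8% were called higher too. In cluster 2, where 24.6% of the listed genes were called higher, Pdgfra thus stood 17.2 points above all other cells, while F3 stood 23.7 points and Pdgfrb 11.1 points below them. Without cluster 4 among the other cells, Pdgfra stood 11.4 points above. In cluster 5 its detection of 69.4% was 5.5 points above that of all other cells, under the minimum for a call. Without cluster 4 among the other cells that difference was -0.27 points. Pdgfra was detected in 21.9% of cluster 11 cells and 14.8% of cluster 4, against 65.0% and 69.6%. It was called lower in both, as were 28.7% and 92.8% of the genes listed for them. Its detection over all cells was 64.4%, and it stood at 67.8% over the 7 clusters without an entry.

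Ly6a and Ly6c1 belong to the LY6 family, small proteins tied to the membrane by a lipid anchor. Ly6a (chromosome 15, 74994877 to 74998031, minus strand) encodes SCA-1, the antigen by which mouse stromal progenitors are usually sorted. It was detected in 20.9% of cluster 4 cells and 60.4% of cluster 11, against 80.1% and 74.6% of all other cells, and was called lower in both. Of the genes listed for clusters 4 and 11, 92.8% and 28.7% were called lower. In cluster 8 it was detected in 81.7% against 74.0%. That difference of 7.7 points was under the minimum, and it was 1.67 points without cluster 4 among the other cells. Over the 9 clusters without an entry Ly6a was detected in 80.3% of cells, and over all cells in 74.4%.

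Ly6c1 (chromosome 15, 75044018 to 75048830, minus strand) was the least often detected of the 5, in 21.2% of all cells. It was listed for clusters 4 and 10 only, with 2.2% and 5.7% against 23.2% and 21.7% of all other cells. Over the other 10 clusters combined it was detected in 23.9%. Its level is uncertain because the gene has close copies beside it. Of the 50-base windows in the last 500 bases of its annotated protein-coding transcripts, 29.2% also occur in transcripts of Ly6a, Ly6c2 or Ly6i. For Ly6a 8.13% of the windows occur in another gene, and for the other 8 markers 0%. A read that holds no bases beyond such a window cannot be given to 1 gene. How the counting treated such reads was not tested.

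Cluster 11 had the widest gap between the listed markers and its other genes, by their medians. Of the 2487 genes listed for cluster 11, 28.7% were called lower and 44.4% higher, with a median difference of 6.6 points. All 4 markers listed there were called lower, with a median of -40.9 points. By the size of the difference, Pdgfrb was the 14th lowest of the 2487 genes, Pdgfra the 65th, F3 the 103rd and Ly6a the 587th. Ly6a was still detected in 60.4% of cluster 11 cells, while F3, Pdgfra and Pdgfrb were detected in 38.1%, 21.9% and 12.4%. In this cluster 8 of the 10 adipocyte genes looked up were called higher, with Plin1, which coats lipid droplets, detected in 99.8% of its cells against 14.4%, and Lipe, a lipase that mobilises fat, in 99.5% against 15.5%.

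Clusters 4 and 10 need a separate reading, since nearly every gene listed for them was detected in fewer of their cells than elsewhere. In cluster 4, 92.8% of the 2072 listed genes were called lower, with a median difference of -47.2 points. All 5 markers were called lower there, with a median of -59.2 points, from -21.0 points for Ly6c1 to -71.9 points for F3, the 56th lowest of the 2072. Only 0.82% of the listed genes were called higher in cluster 4. Adipocyte genes were among them, with 6 of the 9 listed called higher and 0 lower. Plin1 was detected in 29.3% of cluster 4 cells against 14.3%, Lipe in 30.7% against 15.3%, and Car3, a carbonic anhydrase named here after its values were seen, in 62.1% against 21.7%. In cluster 10, 98.5% of the 718 listed genes were called lower, with a median of -48.4 points. F3 and Ly6c1 were called lower there by 33.8 and 16.0 points, which is less than that median. Ly6c1 was detected in 21.7% of the other cells, so it could not fall by as much as the median. As log2 odds ratios, the values of F3 and Ly6c1 were -2.145 and -2.197. The part of the low overall detection of clusters 4 and 10, and of the adipocyte genes of cluster 4, in these marker values was not tested.

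Over all clusters the 5 markers had 26 entries, of which 8 (30.8%) were called higher and 16 (61.5%) lower, against 40% and 37.4% of all 13337 entries. Without clusters 4 and 10, 8 of 19 entries (42.1%) were higher and 9 (47.4%) lower, against 50.4% and 22.4% of all entries. The 26 entries come from 5 genes in overlapping sets of cells and are not independent.

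**Figure D2:**
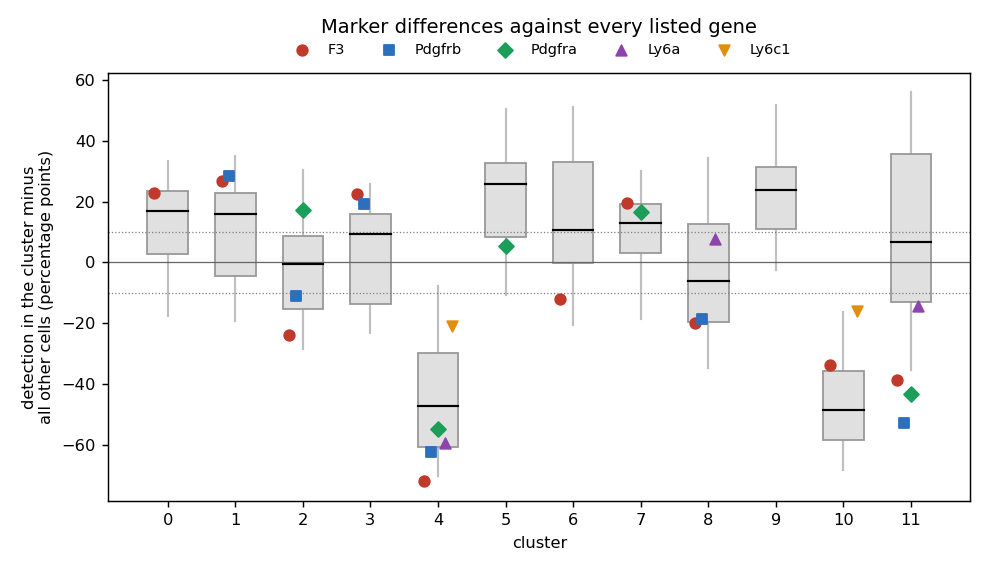
Detection in the cluster minus detection in all other cells (percentage points, vertical axis) by cluster (horizontal axis); grey boxes span the lower to the upper quartile of all genes listed for the cluster, the black bar is their median, grey lines reach from the 5th to the 95th percentile, and coloured symbols are the markers. Dotted lines mark 10 points. F3, Pdgfrb and Pdgfra lie below the grey line of cluster 11, while in cluster 10 F3 and Ly6c1 lie above its median. Ly6c1, at 21.7% of the other cells, could not fall as far as that median.

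Dpp4, Pi16, Cd55, Cd34 and Icam1 had no entry in any cluster. DPP4 is a peptidase, PI16 a protein of the peptidase inhibitor group, CD55 a shield against complement, CD34 a sialomucin and ICAM1 an adhesion molecule for leukocyte integrins. Since a gene without an entry missed at least 1 minimum in each cluster, the table gives no level for these 5, and neither absence nor even expression can be read from it. They include Dpp4, Pi16 and Icam1, the genes that part interstitial from committed cells, so other genes of both kinds were looked up. For the totals of the lists below, the shares over all entries were 40% higher and 37.4% lower.

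Of 16 genes of the interstitial type (Dpp4, Pi16 and Cd55 among them), 6 had entries, 38 in all, with 13 called higher and 20 lower. In cluster 0 all 4 that were listed were higher, as were 66% of all genes of the cluster. Their median was 25 points, against 17.1 for all genes of the cluster. Listed genes of this type were also higher in clusters 1 (3 of 4), 5 (2 of 2) and 9 (2 of 2). Their medians there were 20.5, 36.25 and 34.7 points. Of all genes of clusters 1, 5 and 9, 58.8%, 72.1% and 76.9% were higher. Mfap5, a component of elastic microfibrils, was detected in 97.4% of cluster 0 cells against 68.4%, and Fbn1, the fibrillin of these microfibrils, in 96.0% against 79.8%. In cluster 11 all 5 that were listed were lower, as were 28.7% of all its genes, with a median of -49.6 points against 6.6 for all its genes. There Mfap5 stood at 14.6% against 73.5% and Fbn1 at 30.0% against 82.9%. Genes of this type were lower elsewhere too, in clusters 8 (3 of 4 listed), 6 (2 of 3) and 2 (2 of 3, with Ackr3 higher). The medians of the list there were -29.55, -24.1 and -29.1 points. Of all genes of clusters 8, 6 and 2, 45.5%, 14.9% and 34.5% were lower. In clusters 4 and 10 all 5 and all 3 listed were lower, as were 92.8% and 98.5% of all genes.

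Of 15 genes of the committed type (Icam1 and Pdgfrb among them), 13 had entries, 91 in all, with 29 higher and 33 lower. In cluster 8, 7 of the 11 listed were higher, as were 26.2% of all its genes, and 2 lower. The 7 were Fabp4, Cd36, Col15a1, Col4a2, Cebpa, Pparg and Dpep1, and all but Dpep1 were also higher in cluster 11. Fabp4 and Lpl of this list are also among the adipocyte genes looked up. The median of the 11 was 23.5 points, against -6.2 for all genes of cluster 8. In cluster 6, 5 of the 7 listed were higher and 1 lower, with a median of 25 points against 10.7. In cluster 2, 4 of the 6 listed were higher and 1 lower, with a median of 15.65 points against -0.5. Of all genes of clusters 6 and 2, 51.8% and 24.6% were higher. Pparg, the master regulator of fat cell formation, was detected in 44.8% of cluster 8 cells against 14.1%, and in 89.9% against 14.7% for cluster 11. Cebpa, which acts beside it, was detected in 49.4% against 25.8% in cluster 8 and in 98.7% against 26.1% in cluster 11. Pdgfrb and Vcam1 were the 2 that were lower in cluster 8, with Vcam1 at 14.4% against 48.3%. The list thus did not share 1 direction there. In cluster 11 the list was split too, with 6 of the 13 listed higher and 5 lower, Pdgfrb and Vcam1 among the latter. Of all genes of cluster 11, 44.4% were higher and 28.7% lower. The median of the list there was 8.0 points, against 6.6 for all genes of the cluster.

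The type named after F3 had 14 genes, 12 with entries, 62 in all, of which 23 were higher and 27 lower. In cluster 1, where F3 itself was highest, 9 of the 10 listed were higher, as were 58.8% of all its genes, with a median of 23.9 points against 16.0 for all its genes. Gas6, a ligand of the TAM receptor kinases, was detected in 94.4% of cluster 1 cells against 57.8%. In cluster 4 all 7 listed were lower, as were 92.8% of all its genes, among them Gas6 at 12.8% against 68.3% and Bgn, a matrix proteoglycan, at 46.6% against 98.4%. F3 is itself counted in this list.

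**Figure D3:**
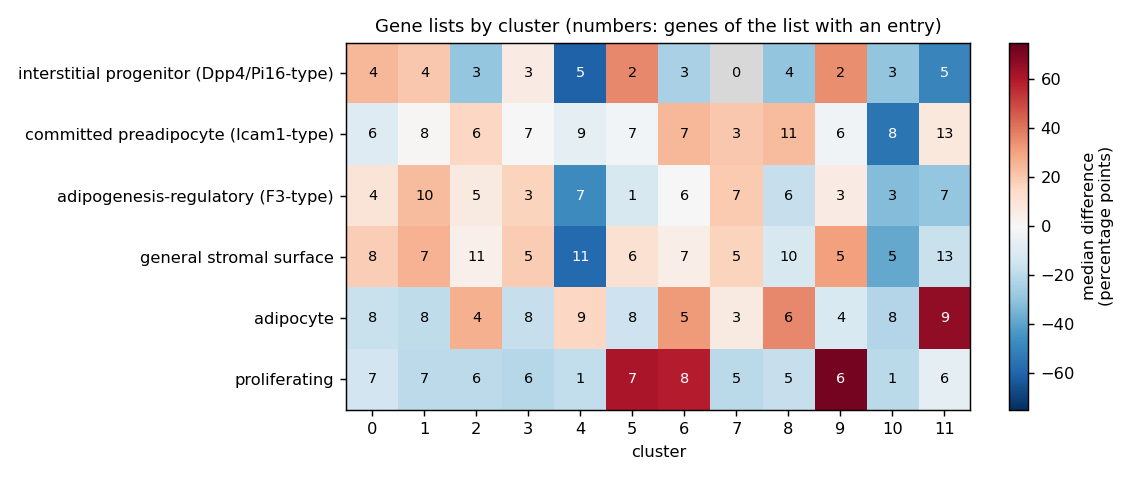
Median difference of detection (percentage points, colour; red higher, blue lower, grey no entry) for 6 gene lists (rows) in 12 clusters (columns); the number in each cell is how many genes of the list had an entry. The F3-type list has its highest median in cluster 1, with 10 genes, and the interstitial list has its lowest medians in clusters 4 and 11, with 5 genes each.

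Among 16 general stromal surface genes, 14 had entries, 93 in all, with 34 higher and 36 lower. The shares over all entries were 40% and 37.4%. Itgb1, an integrin chain, was detected in 19.6% of cluster 4 cells against 93.7%, and the tetraspanin Cd81 in 17.9% against 91.8%. In cluster 11, 8 of the 13 listed were lower and 0 higher, against 28.7% and 44.4% of all its genes, and Itgb1 was detected in 87.8% against 86.6%. A low value in cluster 11 was therefore not shared by every surface gene.

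Genes around the receptors and tissue factor were looked up in the same way, beside shares of 40% higher and 37.4% lower over all entries. Of 16 genes of the PDGF ligands and signalling, 8 had entries, 25 in all, with 7 higher and 14 lower. Stat3, a transcription factor, had the largest difference, at 6.9% against 68.8% in cluster 10. Next came the phosphatase Ptpn11, at 8.3% against 66.1% in cluster 4. In clusters 10 and 4, 98.5% and 92.8% of all listed genes were lower. Of 13 genes of coagulation and fibrinolysis, 5 had entries, 25 in all, with 9 higher and 12 lower. F2r, the thrombin receptor, was detected in 71.6% of cluster 0 cells against 41.3% and in 3.3% of cluster 4 against 50.1%. It was called higher in cluster 0, as were 66% of all genes listed there, and lower in cluster 4, as were 92.8%.

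For the counts that follow, 40% of all entries were higher and 37.4% lower. Of the 9 LY6 family genes, 3 had entries, 10 in all, with 3 higher and 5 lower. Ly6e, unlike Ly6a and Ly6c1, was called higher somewhere, at 93.6% of cluster 6 cells against 69.2% and 90.3% of cluster 8 against 69.8%. Of all genes listed for these clusters, 51.8% and 26.2% were higher. In cluster 4, where 92.8% of the listed genes were lower, Ly6e was at 15.2% against 77.0%. Of 8 complement regulators, the group of Cd55, 2 had entries, 17 in all, with 4 higher and 10 lower. Serping1, the C1 inhibitor, was detected in 99.1% of cluster 1 cells against 65.2% and in 17.1% of cluster 4 against 75.6%. Of 14 partners of ICAM1 and genes induced by NF-kB, 7 had entries, 40 in all, with 14 higher and 19 lower. In cluster 1 all 5 listed were higher, as were 58.8% of all its genes. The membrane linker Msn was at 11.3% against 81.9% in cluster 4 and the mitochondrial enzyme Sod2 at 12.3% against 79.3% in cluster 10, where 92.8% and 98.5% of all listed genes were lower.

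Markers of endothelial, immune, glial, mural and mesothelial cells had few entries or none. The 9 endothelial, 8 immune and 4 glial genes had 0 entries, and per the study's methods such cells had been removed. Of 8 mural genes only Abcc9, a potassium channel subunit, had an entry, at 21.1% of cluster 7 cells against 6.4%. Of 6 mesothelial genes only Krt19, a keratin, had entries, at 34.7% of cluster 9 against 11.3% and 27.6% of cluster 0 against 10.2%. Of the 10 adipocyte genes 9 had entries, 80 in all, with 29 higher and 39 lower. All 8 proliferation genes had entries, 65 in all, with 22 higher and 38 lower. Over all entries the shares were 40% higher and 37.4% lower. Every proliferation gene listed for clusters 5, 6 and 9 was called higher there, as were 72.1%, 51.8% and 76.9% of all genes listed for these clusters. Birc5, a mitotic survivin, was at 95.5% of cluster 9 against 19.7% and Mki67 at 92.0% of cluster 6 against 17.4%. F3 stood at 65.1% in cluster 6 and at 96.5% over clusters 5 and 9, so its level was not the same in the clusters that shared these genes.

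The genes whose detection over clusters was most like that of F3 were Timp2, an inhibitor of metalloproteinases (chromosome 11, 118301069 to 118355740, minus strand), and Cyba, a subunit of NADPH oxidase (chromosome 8, 122424776 to 122432930, minus strand). Over the 10 clusters of F3 their Pearson correlations of detection with F3 were 0.99 and 0.97, the highest of 17 genes listed for all 10. Timp2 was detected in 99.5% of cluster 1 cells, 98.1% of cluster 0, 57.0% of cluster 8 and 7.4% of cluster 4. Timp2 thus followed F3 closely, apart from cluster 11, where it was at 21.9% and F3 at 38.1%. Cyba was at 94.5% in cluster 1, 29.5% in cluster 8 and 5.1% in cluster 4.

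For Pdgfrb the 2 most alike of 108 genes were Mxra8, a membrane protein of the matrix, and again Timp2, with correlations of 1.00 and 0.99 over 6 clusters. Mxra8 was detected in 78.2% of cluster 1 cells, 76.3% of cluster 3, 12.6% of cluster 11 and 3.7% of cluster 4. The points of each correlation are clusters of the same pooled cells and share their depth, and the lowest of them is cluster 4. Over the 8 clusters of F3 other than 4 and 10, the values for Timp2 and Cyba were 0.98 and 0.98.

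**Figure D4:**
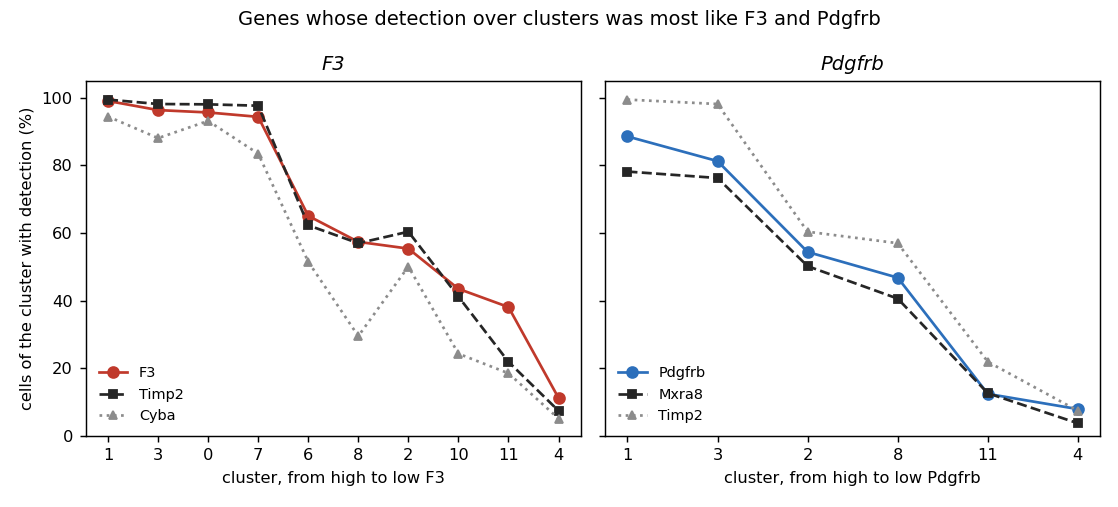
Percent of the cells of each cluster with detection (vertical axis) for F3 with Timp2 and Cyba over 10 clusters (left) and Pdgfrb with Mxra8 and Timp2 over 6 clusters (right), clusters ordered from high to low F3 or Pdgfrb. The lines drop together after cluster 7 on the left and after cluster 3 on the right.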

How the data were processed

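Reads were aligned by the authors with Cell Ranger 6.0.0 (mm10), and read depth was equalised over the captures. In Seurat, cells were filtered and log-normalised, those of immune, glial and endothelial type were taken out, and each cluster of the rest was compared with all remaining cells by MAST. Doublet removal is not described. The deposited fractions of cells with a gene detected, inside and outside each cluster, were used here as percents; the larger of them was never under 10.1%. The deposited log2 fold changes and p-values, raw and adjusted, are the authors' comparisons and were not used. Columns with values per sample left unused numbered 0.

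Python 3.11.15 with numpy 2.4.6, pandas 2.3.3 and matplotlib 3.10.9 was used. Cluster shares came from a least-squares fit to the 10 genes with an entry in every cluster; their unforced sum was 99.9%. The 2687 genes listed for at least 2 clusters, leaving out 35 entries whose symbols had become dates, gave a detection over all cells equal within 0.2 points. The solver was tested on simulated data. A further promoter motif, of the NF-kB type, was also searched and is not reported here. Likeness was computed for markers listed for at least 6 clusters. Besides the markers, the text names the 2 most alike genes of each such marker and, per list, the 2 genes with the largest difference in any cluster, the latter also in other clusters; 2 genes that this rule names are not reported here. The markers and lists were chosen with earlier results of these data known. Depth and cell numbers are unknown from the table, so no interval is given. Promoter sequences are from RefSeq (GRCm38.p6). Windows of 8 of the 10 markers were searched, and none for Ly6a or Pdgfrb. The search skipped markers on chromosome 18, where Pdgfrb lies, so its promoter was not examined. The first of the 2 Ly6c1 windows was used.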

Additional observations from a re-analysis of the deposited data

How the results depend on the processing

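No paired analysis was possible because all samples were pooled before the values were computed. Of the 26 marker entries, the 8 called higher became 4 at a minimum of 20 points, and the 16 called lower became 11. Without clusters 4 and 10, the 16 called lower became 9 and the 8 called higher stayed 8. These counts could only fall or stay, by construction in both cases. A minimum of 5 points or a log2 odds ratio of at least 1 kept both counts within 1.5 times. Pdgfra was highest in cluster 7 by detection, but in cluster 2 by the difference or the odds ratio; the other 4 markers kept their cluster. Shares solved from all genes in at least 2 clusters moved no share by more than 0.058 points. The comparison group moved every difference it could be recomputed for by more than 0.2 points, the tolerance set for values without replicates, and reversed no called entry. With clusters 4 and 10 left out of the other cells, F3 differed by 13.4, 17.4, -33.9, 13.5, -21.3, 10.7, -29.2 and -47.3 points in clusters 0, 1, 2, 3, 6, 7, 8 and 11. With only cluster 4 left out, an alternative chosen after seeing the data, the values in these clusters were 15.0, 19.0, -32.0, 15.1, -19.6, 12.2, -27.5 and -45.8, and -41.1 in cluster 10. Pdgfrb then differed by 21.8, -18.2, 12.6, -25.0 and -58.8 points in clusters 1, 2, 3, 8 and 11, and Pdgfra by 11.4, -0.27, 11.2 and -48.5 in clusters 2, 5, 7 and 11. Ly6a differed by 1.67 and -20.0 in clusters 8 and 11, and Ly6c1 by -18.1 in cluster 10. On a logit scale Rcn3 and Mfap2 replaced Mxra8 and Timp2 as most like Pdgfrb. The number of cells and reads behind each percent is unknown, so the effect of depth was not measured.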

Other observations

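Other genes, chosen after their values were seen, also differed in detection between clusters. Thy1, a lipid-anchored glycoprotein of stromal cells, was detected in 89.0% of cluster 1 cells, 84.9% of cluster 0, 88.4% of cluster 5 and 87.1% of cluster 9, but in 20.9% of cluster 6, 21.7% of cluster 2, 8.0% of cluster 8 and 4.0% of cluster 11. Cd9, a tetraspanin, was at 87.4% in cluster 1 and 80.2% in cluster 3, and at 14.7% in cluster 6 and 4.8% in cluster 8. Anxa3, an annexin that binds membranes, was at 90.0% in cluster 0, 92.7% in cluster 5 and 92.2% in cluster 9, and at 4.1% in cluster 8. Gdf10, a secreted factor of the F3-type list, went another way, at 73.7% in cluster 1 and 71.9% in cluster 6 but 22.7% in cluster 0, where F3 was at 95.7%.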
